A study of Mus musculus with 43 samples.

Results

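The Egr family of transcription factors has 4 members, Egr1, Egr2, Egr3 and Egr4, and their nuclear RNA and the open chromatin around them were compared between mice housed with environmental enrichment (EE) and mice in standard housing (SH). The genes were found by symbol among the 53379 Ensembl genes of both RNA tables. Chromatin regions were taken where the nearest protein-coding gene start was that of a member and lay within 100 kb. This gave 44 of the 165184 regions of the female ATAC table and 39 of the 192919 regions of the male ATAC table.

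All animals were wild-type Swiss Webster mice, an outbred stock, aged 2 months, that had been weaned on postnatal day 25 and then moved to one of the housing types. EE cages were larger and held a running wheel, a tube, extra nesting material and toys, which were replaced regularly; SH cages held bedding and a nestlet. Frontal cortex was fixed, and nuclei carrying the neuronal marker NeuN were sorted for nuclear RNA-seq or for ATAC-seq, an assay in which a transposase cuts and tags accessible DNA. The RNA libraries were 6 EE and 6 SH from females and 6 EE and 6 SH from males, and the ATAC libraries were 3 EE and 3 SH from females and 6 EE and 7 SH from males. Whether a library came from 1 mouse or from several is not stated in the sources used here, so the p-values measure the spread between these libraries. Each sex has its own tables, so that sex and anything else that differs between the tables cannot be told apart.

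Egr proteins are zinc-finger activators and repressors that bind GC-rich elements near the genes they control. In cortical neurons they belong to the immediate early genes: synaptic activity switches them on within minutes, without new protein synthesis, through calcium entry, the ERK kinases and the factors CREB and SRF acting at their promoters. Their transcripts are short-lived. Egr1 is the member most used as a marker of neuronal activity and plasticity, Egr3 acts with it on Arc and other synaptic genes, Egr2 is best known from hindbrain patterning and myelinating Schwann cells, and Egr4 is an activity-induced member studied mainly in brain and testis.

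On GRCm38 (mm10), the gene models used for counting place Egr2 at chr10:67535475-67542188 on the plus strand, Egr3 at chr14:70077203-70082614 on the plus strand and Egr4 at chr6:85511121-85513589 on the minus strand. The location of Egr1 is given with its RNA levels. No other gene of the tables overlapped any of the 4 bodies.

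Promoter sequence from RefSeq (GRCm38.p6) was found for Egr2 and Egr4, and it is shown because an open region covered both starts in both sexes. The first run below is the 250 bases before the RefSeq start of Egr4 (chr6:85513590-85513839, minus strand). The second is a 30-base stretch at chr10:67537793-67537822, plus strand, from 77 to 48 bases before the start of Egr2 at position 67537870, which is one of 5 starts listed for that gene. Capitals mark matches to the CRE core TGACGT, the letters read by CREB, on either strand, and in Egr2 also the CArG box, the SRF motif.
Egr4 promoter: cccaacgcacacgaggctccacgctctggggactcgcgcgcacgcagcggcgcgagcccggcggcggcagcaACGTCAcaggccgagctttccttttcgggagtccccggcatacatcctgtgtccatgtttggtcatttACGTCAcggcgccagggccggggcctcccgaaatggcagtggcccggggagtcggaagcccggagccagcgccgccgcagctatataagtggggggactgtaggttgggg
Egr2 promoter site: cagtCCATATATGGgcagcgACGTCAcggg

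The CRE core was present in 6.47% of 32851 promoter windows of 250 bases in the RefSeq table, and the CArG box, by its strict form, in 1.47%. The Egr4 window held the CRE core at 2 places, 178 to 173 and 110 to 105 bases before the start. The Egr2 window held 1 CArG box and 1 CRE core, which did not overlap, and the printed stretch was chosen to hold both. The windows of the Egr2 starts at 67537869 and 67537930 held these same sites. The window of the start at 67537566 held another CArG box and no CRE core, and that of the remaining listed start had no match. The Egr binding motif GCGNGGGCG, found in 4.70% of windows, and the AP-1 motif TGANTCA, found in 6.75%, had no match on either strand in these Egr2 and Egr4 windows. These matches describe letters only.

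Library totals, in units of 1000000 counts, were 10.4 to 15.4 in the RNA tables, 19.1 to 26.3 in the female ATAC table and 27.7 to 73.8 in the male ATAC table. As a check of the NeuN sort, all 6 neuronal markers examined were detected in both RNA tables, with summed levels of 6010 to 7341 CPM (counts per 1000000 counts of the library). Markers of astrocytes, oligodendrocytes, oligodendrocyte precursors, microglia and vascular cells were also detected, at summed levels of at most 298 CPM for any cell type, and in females all 5 of these lists were highest in the library SH replicate 2. In bulk nuclei, fewer cells of a type and less RNA per cell cannot be told apart.

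In females, the 4 Egr genes averaged higher in EE than in SH nuclei, but none passed an adjusted p of 0.05 in edgeR's quasi-likelihood test with Benjamini-Hochberg adjustment over all 14587 genes. In that test 0 genes (0%) were called in either direction, 1265 (8.67%) had an unadjusted p under 0.05, and DESeq2 called 121. A log2 fold change above 0 was found for 50.6% of all genes.

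Egr1 lies on the plus strand of chromosome 18, from 34859823 to 34864984. This most abundant member was present at 22.6, 30.4 and 42.0 CPM (lowest, median and highest) in the 6 female EE libraries, against 6.43, 18.9 and 21.8 CPM in the 6 female SH libraries. Every EE library lay above every SH library, although the gap between the highest SH and the lowest EE library was small. Such a complete separation in this direction occurred in 0.295% of all genes tested. The means were 30.5 ± 6.88 CPM in EE nuclei and 16.3 ± 6.45 CPM in SH nuclei (SD over 6 libraries each), and the log2 fold change was 0.91 ± 0.28 (SE; adjusted p = 0.337 in edgeR).

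Egr2, by far the scarcest member, was at 0.269, 1.06 and 2.30 CPM in female EE nuclei and at 0.0776, 0.515 and 1.055 CPM in female SH nuclei. These levels rested on 3 to 35 counts per EE library and 1 to 13 per SH library, and the groups overlapped, with 3 of 6 EE libraries above every SH library. Its log2 fold change was 1.22 ± 0.51 (SE; adjusted p = 0.504 in edgeR), with 5 of 6 EE libraries above the SH median.

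Egr3 was at 5.65, 9.94 and 15.4 CPM in female EE nuclei and at 5.09, 8.60 and 9.97 CPM in female SH nuclei. The lowest libraries of both housings were alike, and only the upper EE libraries exceeded the SH range. The log2 fold change was 0.40 ± 0.23 (SE; adjusted p = 0.677 in edgeR). Egr4 was at 0.986, 1.62 and 2.01 CPM in female EE nuclei and at 0.388, 1.07 and 1.298 CPM in female SH nuclei. Of the 6 EE libraries, 5 were above the SH median and the ranges overlapped. Its log2 fold change was 0.66 ± 0.30 (SE; adjusted p = 0.553 in edgeR). At an unadjusted p under 0.05 and in this direction stood Egr1, Egr2 and Egr4, beside 4.53% of all genes, and no member stood there in the other direction, beside 4.14%.

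The female values changed little without the library richest in non-neuronal markers. Without SH replicate 2 the log2 fold change of Egr1 was 1.01 ± 0.30, that of Egr2 1.296 ± 0.55, that of Egr3 0.47 ± 0.25 and that of Egr4 0.58 ± 0.31 (SE). In a fit that also took account of these markers, Egr1 was at 0.93 ± 0.30 and Egr3 at 0.43 ± 0.23.

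**Figure D1:**
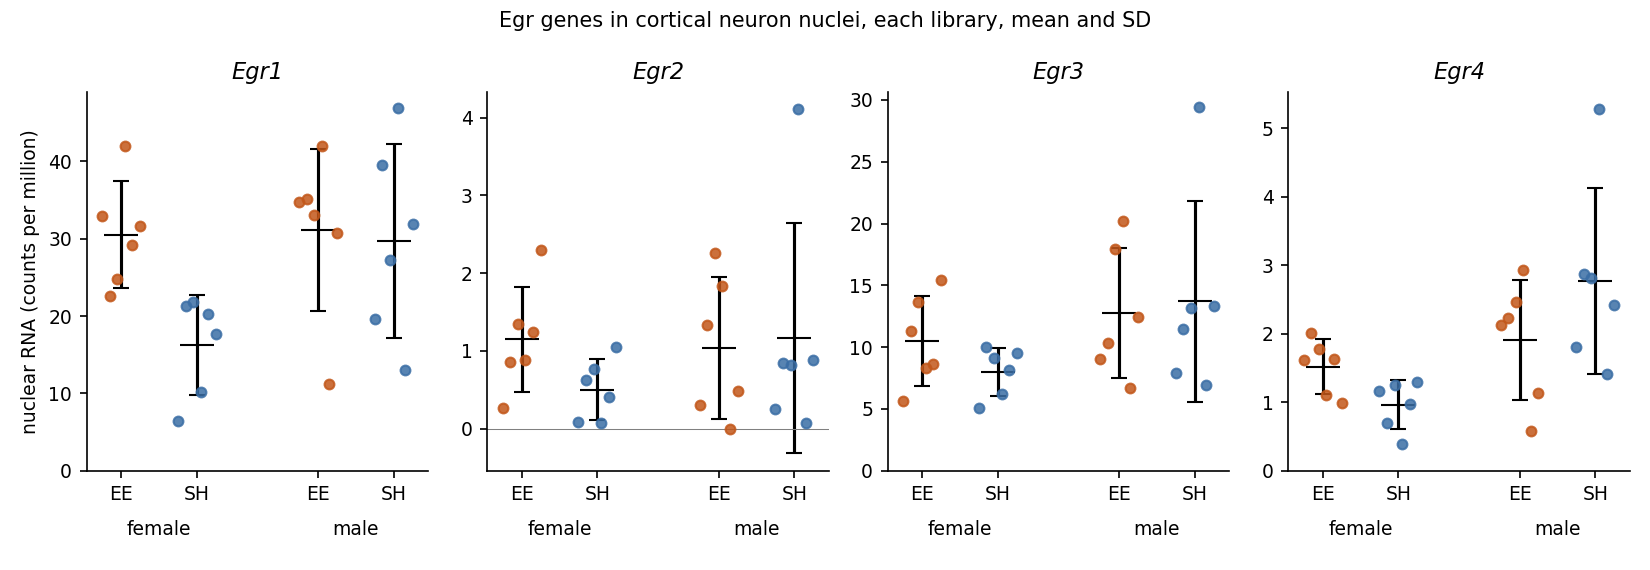
Nuclear RNA of the 4 Egr genes in CPM for each library (points), with group mean and SD (black), in EE and SH nuclei of females and males; each panel has its own linear axis. The female EE and SH libraries do not overlap for Egr1, and the male libraries spread widely, with a single SH library at 4.11 CPM for Egr2 and at 29.4 CPM for Egr3.

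In males, none of the 4 genes passed the test either, and EE and SH libraries overlapped for each of them. The male fit called 6 of 14597 genes (0.0411%), and no member was among them. At an unadjusted p under 0.05, where 8.03% of all genes stood (4.09% higher and 3.94% lower in EE), there was no Egr gene. Egr1 was at 11.2, 33.9 and 42.0 CPM in male EE nuclei and at 13.03, 29.6 and 46.9 CPM in male SH nuclei. Each housing had a library near the bottom of that range, and the log2 fold change was 0.08 ± 0.35 (SE; adjusted p = 0.977 in edgeR). Even so, 5 of 6 EE libraries were above the SH median, as for female Egr2 and Egr4. The share of all genes with such a count was not taken.

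Egr2 was at 0, 0.911 and 2.27 CPM in male EE nuclei and at 0.0708, 0.834 and 4.11 CPM in male SH nuclei. EE replicate 5 had 0 counts, which allows up to 0.249 CPM at 3 counts for that library, a limit that covers counting error only. The log2 fold change of Egr2 was -0.12 ± 0.86 (SE; adjusted p = 0.985 in edgeR), and without SH replicate 4, the highest library, it was 0.85 ± 0.74. Egr3 was at 6.72, 11.4 and 20.2 CPM in male EE nuclei and at 6.94, 12.3 and 29.4 CPM in male SH nuclei. Its log2 fold change was -0.08 ± 0.40 (SE; adjusted p = 0.977 in edgeR) and 0.29 ± 0.31 without SH replicate 4, the highest library for this gene too. The sign of the male Egr1, Egr2 and Egr3 values thus depended on single libraries, whereas that of Egr4 did not. Egr4 was at 0.581, 2.17 and 2.93 CPM in male EE nuclei and at 1.42, 2.62 and 5.28 CPM in male SH nuclei. For this gene 1 of 6 EE libraries was above the SH median, and the log2 fold change was -0.53 ± 0.36 (SE; adjusted p = 0.759 in edgeR), or -0.24 ± 0.30 without SH replicate 4.

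The female and male housing differences were compared in 1 fit of all 24 RNA libraries. The difference of the log2 fold changes, female minus male, was 0.84 ± 0.46 for Egr1, 1.35 ± 1.07 for Egr2, 0.49 ± 0.48 for Egr3 and 1.18 ± 0.47 for Egr4 (SE). Without male SH replicate 4 the Egr2 value was 0.36 and the Egr3 value 0.11. Egr4 had the smallest adjusted p of the 4, 0.412 in edgeR, with an unadjusted p of 0.0166, and 4.40% of all genes had an unadjusted p under 0.05 in that direction. The fit called 1 of 15562 genes (0.00643%), and a difference between the sexes was therefore not shown for any Egr gene.

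Per kilobase of gene length, the order of levels was Egr1, Egr3, Egr4 and Egr2 in all 4 groups. In female EE nuclei the means were 5.91 ± 1.33, 1.94 ± 0.675, 0.615 ± 0.161 and 0.171 ± 0.101 CPM per kb in that order (SD, n = 6), and no neighbours in the order overlapped. In female SH nuclei Egr1, at 1.24 to 4.23 CPM per kb, overlapped Egr3, at 0.941 to 1.84 CPM per kb. Male EE libraries overlapped between Egr1 and Egr3 and between Egr4 and Egr2. Male SH libraries overlapped between all 3 pairs of neighbours. Within each single library the order was the same, in 6 of 6 libraries of all 4 groups.

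The spread between libraries of 1 group was itself large for these genes. The biological coefficient of variation, edgeR's estimate of the spread between replicates beyond counting error, was 0.318 for Egr1, 0.805 for Egr2, 0.348 for Egr3 and 0.348 for Egr4 in males. Genes of the same abundance had 0.0773, 0.186, 0.0877 and 0.159 there, which is 2.19 to 4.34 times less. In females the members stood at 0.276, 0.498, 0.248 and 0.248, beside 0.110, 0.294, 0.155 and 0.291 for genes of like abundance, so that the female Egr4 spread was not above its abundance class.

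Male libraries that were high or low for 1 Egr gene tended to be high or low for the others. After removal of the housing means, the 6 pairs of members had Pearson correlations of 0.790 to 0.930 and Spearman correlations of 0.692 to 0.902 across the 12 male libraries. All 6 passed after Benjamini-Hochberg adjustment over 18 relations (permutation within housing, largest adjusted p = 0.00317 for r and 0.0311 for rho), and r stayed between 0.708 and 0.890 without the 2 libraries farthest from the median. EE replicate 5 and SH replicate 5 were the lowest libraries of their housing for all 4 genes, and SH replicate 4 was the highest library for all 4 genes.

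Female libraries gave another picture. Only Egr2 and Egr3 passed there, with r = 0.880 and rho = 0.860 (permutation, adjusted p = 0.00106 and 0.00176) and r = 0.825 without the 2 farthest libraries. The other 5 female pairs had adjusted p-values of 0.114 to 0.940 for r. Egr1 and Egr4, which correlated at 0.909 in males (permutation, adjusted p = 0.000180, n = 12), were at -0.0321 in females (permutation, adjusted p = 0.940, n = 12). Whether the correlations differ between the sexes was not tested. Members of 1 library share its depth and scaling, and these relations were chosen after the data had been seen.

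**Figure D2:**
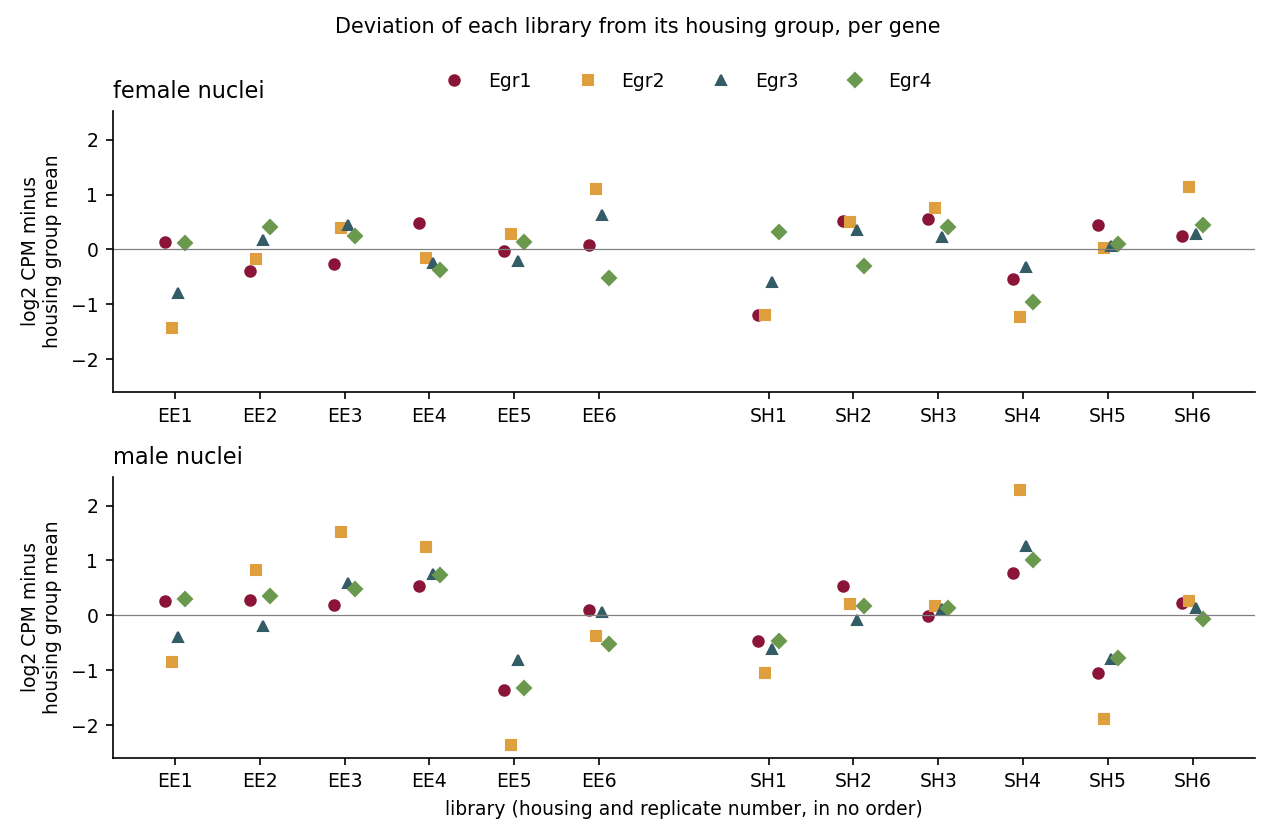
Deviation of the log2 CPM of each Egr gene from the mean of its housing group (vertical axis) in each RNA library (horizontal axis, EE left and SH right; libraries have no order), females above and males below. In males EE5 and SH5 are low and SH4 is high for all 4 genes, while some other libraries, such as EE1, have symbols on both sides of 0. In females Egr1 and Egr4 often lie apart from Egr2 and Egr3.

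Ratios between members were taken within each library, after 2 counts had been added to each gene, so that those of the scarce members depend on the added count. Of the 6 ratios in each sex, 12 in all, none passed an exact two-sided permutation test after adjustment. The nearest was Egr4 over Egr1 in males, whose log2 ratio averaged -3.95 ± 0.320 in EE nuclei and -3.35 ± 0.267 in SH nuclei (SD over 6 libraries each, exact p = 0.00433, adjusted p = 0.0519). EE ratios ran between -4.57 and -3.65 and SH ratios between -3.70 and -3.08, so that the groups overlapped slightly. Without SH replicate 2 the adjusted p was 0.0260, and with 5 counts in place of 2 added before the ratio it was 0.130. In females the same ratio averaged -4.21 ± 0.647 in EE nuclei and -3.82 ± 0.817 in SH nuclei (SD over 6 libraries each, exact p = 0.396). The ratios, too, were chosen after the data had been seen.

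Genes were ranked in each sex by how like the mean of the 4 members their levels across libraries were, after removal of the housing means. Whether the rankings differ between the sexes was not tested. The top 5 genes were not the same in females and males. In males they were Btg2 (r = 0.972), an antiproliferative immediate early gene; Arc (r = 0.952), a synaptic plasticity gene; Junb (r = 0.949), an AP-1 subunit; Prkar1a (r = 0.949), a regulatory subunit of protein kinase A; and Nr4a1 (r = 0.936), an orphan nuclear receptor. In females they were Tmbim6 (r = 0.915), a membrane protein of the endoplasmic reticulum; Spry2 (r = 0.906), an inhibitor of receptor tyrosine kinase signalling; Dusp1 (r = 0.888), a MAP kinase phosphatase; St3gal1 (r = 0.886), a sialyltransferase; and Gpr83 (r = 0.884), a G protein-coupled receptor. Each r is over 12 libraries and is the top of a ranking of 11028 genes in females and 11020 in males, in which the 90th percentile was 0.435 in females and 0.520 in males. None of these 10 genes passed the housing test, with adjusted p-values of 0.187 to 0.977 in edgeR.

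Genes that act around the Egr factors were examined by role. Of 20 other immediate early genes with enough counts, 18 had a positive log2 fold change in females, beside 50.6% of all genes, with a median of 0.47 against 0.0019 over all genes, and 0 passed the adjusted threshold. In males 10 of the 20 were positive, beside 47.9% of all genes, and the median was 0.03, or -0.0028 when libraries were scaled by total count alone. Fosb, an AP-1 subunit, averaged 1.46 ± 0.557 CPM in female EE and 0.462 ± 0.360 CPM in female SH nuclei (SD, n = 6 each), a log2 fold change of 1.63 ± 0.40 (SE; adjusted p = 0.163 in edgeR). Npas4, a neuron-specific activity-induced factor, averaged 22.1 ± 4.68 CPM in female EE and 11.1 ± 4.04 CPM in female SH nuclei, a log2 fold change of 1.00 ± 0.24 (adjusted p = 0.191). In males Npas4 was at -0.41 ± 0.34 (SE; adjusted p = 0.823 in edgeR). In females 7 of the 20 had an unadjusted p under 0.05 and were higher in EE, where 4.53% of all genes stood, and in males 0, beside 4.09% of all genes.

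**Figure D3:**
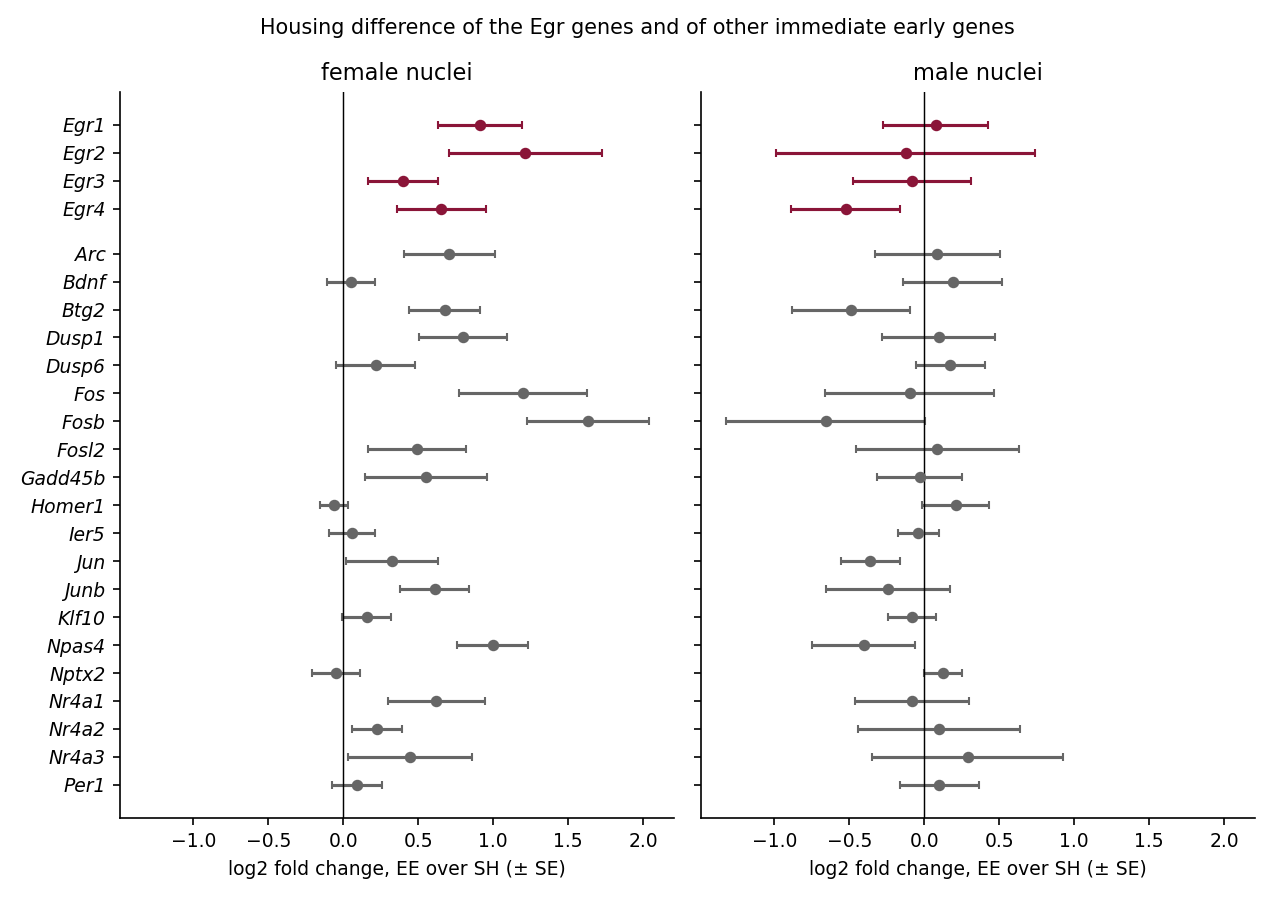
Log2 fold change of nuclear RNA, EE over SH, with its standard error (horizontal), for the 4 Egr genes (red) and 20 other immediate early genes (grey), in females on the left and males on the right. All 4 Egr genes lie right of 0 in females, at 0.40 to 1.22, and between -0.53 and 0.08 in males; no gene shown passed the adjusted threshold.

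Among 14 upstream factors and kinases, 0 passed in either sex. Mapk3, which encodes ERK1, came closest in males, with 2.74 ± 0.380 CPM in EE and 4.54 ± 0.720 CPM in SH nuclei (SD, n = 6 each), a log2 fold change of -0.72 ± 0.14 (SE; adjusted p = 0.0684 in edgeR). Rps6ka2, a ribosomal S6 kinase activated by ERK, was at -0.21 ± 0.05 in males (adjusted p = 0.214). Rps6ka3, another listed kinase, went the other way, at 0.13 ± 0.05 in males (SE; adjusted p = 0.439 in edgeR). Elk3, a ternary complex factor that binds with SRF, was at -0.43 ± 0.14 in females (SE; adjusted p = 0.322 in edgeR). Map2k2, also listed, was at 0.14 ± 0.07 and Mrtfb at -0.09 ± 0.04 in females (SE; adjusted p = 0.569 and 0.578 in edgeR). At an unadjusted p under 0.05 in females stood 1 gene higher in EE, beside 4.53% of all genes, and 1 lower, beside 4.14%. In males 1 was higher, beside 4.09%, and 3 were lower, beside 3.94%. The median log2 fold change was -0.03 in both sexes. The corepressors that bind Egr proteins lay near 0, Nab1 at 0.07 ± 0.07 and Nab2 at 0.15 ± 0.12 in females and Nab1 at 0.02 ± 0.07 and Nab2 at -0.12 ± 0.13 in males (SE).

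Of 9 described Egr targets with enough counts, 0 passed in females or males. Arc and Bdnf were listed both here and among the other immediate early genes, so these lists are not independent. Arc averaged 24.8 ± 6.33 CPM in female EE and 15.3 ± 6.60 CPM in female SH nuclei (SD, n = 6 each), a log2 fold change of 0.71 ± 0.30 (SE; adjusted p = 0.556 in edgeR), and was at 0.09 ± 0.41 in males. Syn2, a synaptic vesicle protein gene, was at -0.06 ± 0.05 in females, Syn1 at 0.06 ± 0.04 in males and Gabra4, a GABA-A receptor subunit gene, at 0.06 ± 0.04 in males. Cdk5r1, the neuronal activator of CDK5, was at -0.18 ± 0.12 in females and Htr2a, a serotonin receptor gene, at 0.16 ± 0.07 in males. The median over the 9 was -0.02 in females and 0.06 in males. Among the genes of these lists, unfiltered counts called Fos, Fosb and Dusp1 in females and Mapk3 and Rps6ka2 in males, DESeq2 called Npas4 in females and Rps6ka2 in males, and a replicate block called Fos, Fosb and Npas4 in females and none in males.

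At the female Egr loci, 38 of the 44 accessible regions had a log2 fold change below 0, EE lower than SH, and 0 passed the adjusted threshold. The fit called 78 of 164926 regions (0.0473%), and 51.7% of all regions had a log2 fold change below 0. The median over the 44 was -0.22, against -0.01 over all regions and -0.06 over the 9718 regions that cover a protein-coding start, of which 71.2% were below 0. In 8 of the 44 regions the unadjusted p was under 0.05 with EE lower, beside 3.48% of all regions and 3.45% of those over starts, and in 0 with EE higher, beside 4.53% of all regions. In 6 regions every EE library lay below every SH library, beside 6.30% of all regions and 6.78% of those over starts, and in 0 every EE library lay above, beside 6.46%.

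Of 18 female regions within 10 kb of a member's start, 17 were lower in EE, with a median log2 fold change of -0.29, and of 26 regions farther away 21 were lower, with a median of -0.14. Such shares by distance were not taken over all regions. The regions were measured in the same libraries, so their counts are not independent. The share of all ATAC counts that fell in regions over gene starts was 22.1 to 22.8% in the female EE libraries and 22.2 to 24.4% in the female SH libraries. Its part in the log2 fold changes of the Egr regions was not tested.

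Immediately upstream of Egr3, ending 108 bases before its start, the region at chr14:70073561-70077095 had 54.3, 56.4 and 52.0 CPM in the 3 female EE libraries and 61.4, 68.6 and 79.0 CPM in the 3 female SH libraries. The EE values were close together and all below the SH values. Its log2 fold change was -0.36 ± 0.10 (SE; adjusted p = 0.145 in edgeR), the smallest p among the Egr regions, and leaving out 1 library moved it between -0.44 ± 0.10 without SH replicate 1, where the region passed (adjusted p = 0.0300), and -0.26 ± 0.11 without SH replicate 3 (adjusted p = 0.718). Within the Egr3 body, the region at chr14:70077333-70079452 had 23.6, 21.2 and 20.9 CPM in EE and 24.4, 25.5 and 29.9 CPM in SH libraries. Here too the groups did not overlap, and the log2 fold change was -0.28 ± 0.11 (SE; adjusted p = 0.480 in edgeR). Egr3, to which 21 of the 44 female regions belonged, had 6 of the 8 with an unadjusted p under 0.05. They were spread from 78.4 kb upstream to 7.04 kb downstream of its start.

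The region over the Egr2 starts (chr10:67535250-67539550), which contains the 30 bases printed for that gene, had 47.3, 59.3 and 47.4 CPM in female EE and 58.5, 57.9 and 71.9 CPM in female SH libraries. A single EE library reached the SH range. The log2 fold change was -0.29 ± 0.10 (SE; adjusted p = 0.358 in edgeR), and -0.18 ± 0.11 without SH replicate 3. The region over the Egr4 start (chr6:85509890-85514546), which spans the whole gene and the printed promoter, had 45.9, 45.7 and 51.8 CPM in EE and 48.4, 56.3 and 62.0 CPM in SH libraries. Its groups overlapped at 1 library each, and its log2 fold change was -0.22 ± 0.10 (SE; adjusted p = 0.576 in edgeR), and -0.13 ± 0.11 without SH replicate 3.

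Over the Egr1 start, from 34859784 to 34861957 on chromosome 18, female EE libraries had 73.1, 74.8 and 76.5 CPM and SH libraries 74.1, 90.2 and 90.0 CPM, a log2 fold change of -0.18 ± 0.09 (SE; adjusted p = 0.642 in edgeR). SH replicate 1 lay within the EE range, and the other 2 SH libraries lay above it. The region that follows it and runs past the 3′ end of Egr1 had 41.6, 48.4 and 30.1 CPM in EE and 44.0, 52.9 and 90.6 CPM in SH libraries. SH replicate 3 was the highest library and EE replicate 3 the lowest, and the log2 fold change was -0.64 ± 0.37 (SE), or -0.27 ± 0.14 without SH replicate 3. The Egr1 region with the smallest p, 27.6 kb downstream, had 13.5, 12.6 and 12.2 CPM in EE and 14.3, 14.5 and 16.8 CPM in SH libraries, without overlap and with a log2 fold change of -0.25 ± 0.13 (SE; adjusted p = 0.642 in edgeR).

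**Figure D4:**
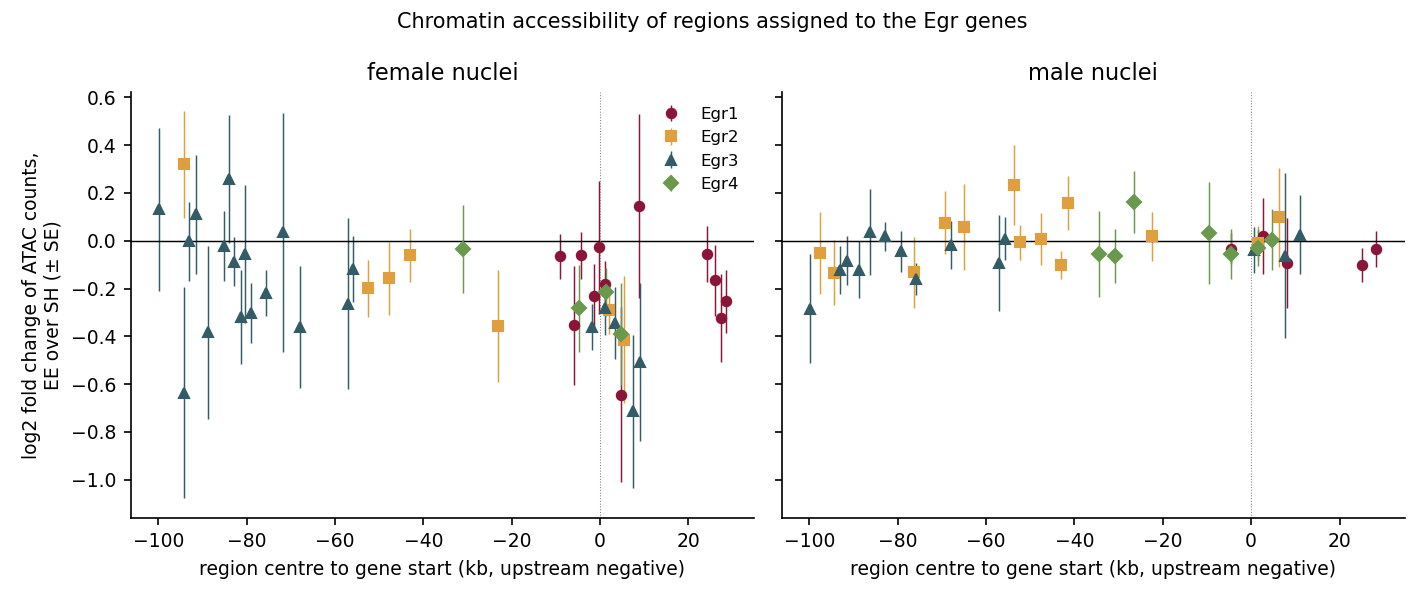
Log2 fold change of ATAC counts, EE over SH, with its standard error (vertical) for each region assigned to an Egr gene, against the distance of its centre from the gene start in kb (horizontal, upstream negative), in females on the left (44 regions) and males on the right (39 regions). In females 17 of the 18 regions within 10 kb of a start lie below 0; in males the regions lie on both sides of 0.

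In males no Egr region passed, and the fit called 0 of 192834 regions (0%), of which 8746 had an unadjusted p under 0.05; DESeq2 called 7. Of the 39 Egr regions 24 were lower in EE, where 50.3% of all regions and 70.8% of those over protein-coding starts were, and the median log2 fold change was -0.03. Without EE replicate 3, 84.6% of the Egr regions were lower in EE, and none passed. At an unadjusted p under 0.05 stood 1 region, with EE lower, beside 1.92% of all regions. In 0 regions did the housings separate fully, beside 0.0596% of all regions with EE below and 0.0638% with EE above. The single region lay 73.2 kb upstream of Egr3 (chr14:69998927-70003963), at 33.7, 36.9 and 45.5 CPM (lowest, median and highest) in the 6 EE libraries and 37.6, 40.7 and 47.0 CPM in the 7 SH libraries. The groups overlapped, and the log2 fold change was -0.16 ± 0.07 (SE; adjusted p = 1 in edgeR). In females the region that overlaps it (chr14:69999052-70003928) had 60.7, 60.3 and 61.4 CPM in EE and 63.4, 67.8 and 81.2 CPM in SH libraries, with no overlap, and a log2 fold change of -0.22 ± 0.10 (SE; adjusted p = 0.537 in edgeR).

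The male regions over the 4 gene starts differed little between housings, with log2 fold changes of 0.02 ± 0.16 for Egr1, -0.01 ± 0.07 for Egr2, -0.04 ± 0.10 for Egr3 and -0.03 ± 0.08 for Egr4 (SE). The other male regions singled out by the smallest p of their gene were at -0.10 ± 0.07 for Egr1, -0.10 ± 0.06 for Egr2 and 0.16 ± 0.13 for Egr4. Female and male regions were drawn up separately, so that the housing difference at a region was not compared between the sexes by a test.

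Among the male Egr regions, the 3′-end regions of Egr3 and Egr2 had the highest spread between libraries relative to regions of like abundance. At the Egr3 3′ end (chr14:70082191-70087433) the EE libraries ran over 7.15, 11.6 and 22.5 CPM (lowest, median and highest) and the SH libraries over 6.95, 11.1 and 23.5 CPM, a biological coefficient of variation of 0.293, where regions of the same abundance had 0.107. At the Egr2 3′ end (chr10:67539733-67544051) the EE libraries ran over 8.23, 11.3 and 16.9 CPM and the SH libraries over 7.14, 11.1 and 14.9 CPM, with 0.191 against 0.110. The housing differences there were -0.06 ± 0.35 for Egr3 and 0.10 ± 0.21 for Egr2 on the log2 scale (SE; adjusted p = 1 for both in edgeR). EE replicate 3 and SH replicate 4 were at the top of both ranges, and EE and SH replicates 1 and 5 at the bottom.

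The 3′-end regions of the 4 genes moved together across the 13 male ATAC libraries. With the housing means removed, the 6 pairs had Pearson correlations of 0.807 to 0.953 and Spearman correlations of 0.709 to 0.951, all passing within the 18 relations (permutation, largest adjusted p = 0.00198 for r and 0.0162 for rho). Without the 2 farthest libraries r was 0.779 to 0.963. Regions of 1 library share its depth and scaling, and such correlations were not taken for regions of other genes, so a movement particular to the Egr genes is not shown. For Egr1 and Egr4 the region with the 3′ end is the same as the one over the start. The count at the Egr3 3′-end region relative to the start region of the same library ran from 0.105 to 0.269, with a median of 0.144, and that at Egr2 from 0.161 to 0.288, with a median of 0.198.

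**Figure D5:**
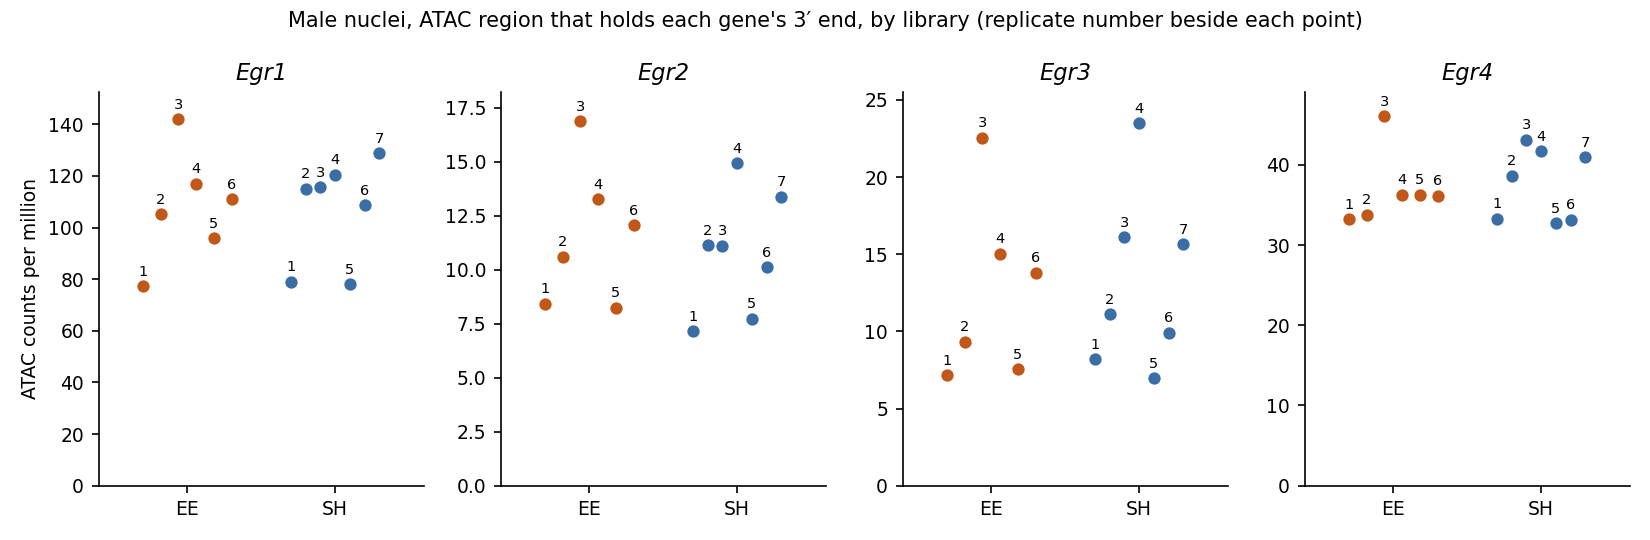
ATAC counts, in CPM, in the region that holds the 3′ end of each Egr gene, in each male library (points, with replicate numbers), EE left and SH right; axes start at 0. For Egr3 the libraries range from 6.95 to 23.5 CPM, with EE replicate 3 and SH replicate 4 highest, and both housings cover the same range.

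Whether male RNA and ATAC levels of the Egr genes moved together depended on how the libraries were matched, since the sources used here do not say which came from the same animals. The replicate numbers of the sample titles and the numbers in the tables' column headers give different matches, and both were tried, which makes 8 relations. Nuclear RNA was set against 3′-end accessibility with housing means removed in both. By title number, over 12 libraries, r was 0.908 and rho 0.895 for Egr3 (permutation within housing, adjusted p = 0.00096 and 0.0052) and r was 0.893 and rho 0.846 for Egr2 (permutation, adjusted p = 0.00208 and 0.0086). Without the 2 farthest libraries these r were 0.865 and 0.847. Egr1, at r = 0.566 and rho = 0.448, and Egr4, at r = 0.434 and rho = 0.462, did not pass (permutation, smallest adjusted p = 0.188).

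By header number, over 11 libraries, none of the 4 genes passed. Egr3 was at r = 0.441 and rho = 0.482 and Egr2 at r = 0.503 and rho = 0.591, with adjusted p-values of 0.188 to 0.203 (permutation). Egr1 was at r = 0.516 and Egr4 at r = 0.442 (permutation, adjusted p = 0.203 for both). A relation between Egr RNA and 3′-end accessibility across libraries is therefore not established by these data. Both sets of relations were chosen after the data had been seen.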

How the data were processed

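Values are whole-number counts per gene or per open region, as deposited by the authors, in 1 table each for female and male nuclear RNA and ATAC libraries. Per the submitters' processing notes, mm10, STAR 2.5.4, SAMtools 1.3.1, MACS2 2.1.1, DiffBind 3.2.2, bedtools, DESeq2 1.16.1 and edgeR were used; the role of each is not given in the sources used here. No sample column was left unused.

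Each table was fitted whole with edgeR 4.0.16 (filterByExpr, TMM scaling, robust quasi-likelihood F test, two-sided, R 4.3.3), and p-values were adjusted by Benjamini-Hochberg over all features tested, with 0.05 as threshold. Levels are in CPM of the scaled library, and per kb of annotated gene length where genes are compared. Library totals are given with the results. Log2 values for correlations had 2 counts added in RNA and no count added in ATAC. Permutations numbered 100000 and ratios were tested by exact permutation. The 4 genes, of the other 47 listed genes up to 3 per role and table with the smallest p, and the 5 genes most like the family per table are named. Per table and gene, the region over or nearest the start and the region with the smallest p are named, and others were chosen after their values were seen. The family, the gene lists and these rules were chosen with earlier results of these data known. The fits were tested on simulated counts. Alternatives were DESeq2 1.42.0, limma 3.58.1, other scaling, no filter, a replicate block, a marker covariate, a 50 kb window and leaving out each library.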

Additional observations from a re-analysis of the deposited data

Results flagged for a closer look

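In 36 groups of Egr values with 6 or 7 libraries, the gap between the most extreme library and its neighbour was set against the group's range. By Dixon's criterion 5 groups had a library that stood apart. Its chance rate of about 1 in 20 holds for independent groups of normally distributed values. Here CPM were used without a log scale and the groups share libraries, so the 5 cannot be set against that rate. All 5 were male, as were 28 of the 36 groups, since the female ATAC groups were too small to enter. For Egr1 RNA, EE replicate 5 had 11.2 CPM while the other EE libraries had 30.8 to 42.0 CPM. For Egr2 RNA, SH replicate 4 had 4.11 CPM while the other SH libraries had 0.0708 to 0.888 CPM. For Egr3 RNA the same SH library had 29.4 CPM and the others 6.94 to 13.3 CPM. In ATAC, EE replicate 3 had 96.5 CPM in the region over the Egr3 start, with the other EE libraries at 62.3 to 74.4 CPM. The same EE library had 46.1 CPM in the region over the Egr4 start, with the others at 33.2 to 36.3 CPM. The gap took up 0.636, 0.798, 0.716, 0.647 and 0.762 of the range in that order, where 0.625 is the critical value for 6 libraries.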

How the results depend on the processing

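No Egr gene was called under another method, scaling or filter, but in DESeq2 the adjusted p was missing for 2 of 4 genes in females and for all 4 in males and in the interaction. Female Egr1 ran from 0.90 to 1.01 on the log2 scale (lowest adjusted p = 0.0983). Leaving out 1 library gave female values of 0.75 to 1.01 for Egr1, 0.89 to 1.58 for Egr2, 0.25 to 0.52 for Egr3 and 0.49 to 0.76 for Egr4. The male values were -0.0797 to 0.256, -0.47 to 0.85 (10 of 12 fits, as Egr2 missed the low-count filter in the others), -0.28 to 0.29 and -0.71 to -0.24. The interaction ran over 0.65 to 0.99, 0.36 to 1.71, 0.11 to 0.67 and 0.89 to 1.35. Over the female starts the values were -0.26 to -0.13 for Egr1, -0.40 to -0.18 for Egr2 and -0.30 to -0.13 for Egr4, and -0.44 to -0.26 upstream of Egr3. Over the male starts they were -0.0735 to 0.0993 for Egr1, -0.0486 to 0.0369 for Egr2, -0.127 to 0.00703 for Egr3 and -0.101 to 0.00717 for Egr4, and total-count scaling turned Egr2 to 0.0028. Egr regions called in females were 0 to 1, the 1 being without SH replicate 1, and the male Egr4 over Egr1 ratio was -0.68 to -0.48. Of the pathway genes, DESeq2 called 1 in females and 1 in males, unfiltered counts 3 and 2, and the replicate block 3 and 0. The causes were not tested. All-gene calls in female RNA were 0, against 121 with DESeq2, 168 unfiltered, 95 with the block, 55 with the marker covariate and 0 to 85 without 1 library; in male RNA they were 6, against 49, 136, 3, 8 and 0 to 11. The interaction called 1, against 92 with DESeq2 and 92 unfiltered. Female regions called were 78, against 122 with DESeq2, 34 with the block and 22 to 333 without 1 library.

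By the sample titles, EE and SH libraries share replicate numbers, which the male RNA column headers give otherwise. In female RNA and in ATAC the headers match EE and SH libraries as the titles do. Over all features the deviations of same-numbered libraries correlated at 0.0376 to 0.347 in female RNA (5 of 6 pairs over 0.1), -0.042 to 0.226 in male RNA, -0.086 to 0.0586 in female ATAC and -0.177 to 0.275 in male ATAC, so the numbers were not taken as pairs. For the Egr genes themselves, looked at after seeing the data, same-numbered libraries correlated at r = 0.825, 0.812, 0.893 and 0.751 in males and -0.696, 0.794, 0.893 and 0.153 in females for Egr1 to Egr4. In exact permutation tests over these 8 relations of 6 pairs, male Egr3 passed for r (adjusted p = 0.0444; for rho 0.0889), and the other adjusted p-values for r were 0.0778 to 0.753. Without the 2 farthest libraries r was -0.11 to 0.94 in males, lowest for Egr1, and -0.72 to 0.74 in females. With the replicate block the female values were 0.94 ± 0.37 for Egr1, 1.24 ± 0.36 for Egr2, 0.37 ± 0.12 for Egr3 and 0.67 ± 0.30 for Egr4 (SE; adjusted p = 0.459, 0.142, 0.185 and 0.420 in edgeR). The male values were 0.08 ± 0.14, -0.07 ± 0.37, -0.06 ± 0.11 and -0.55 ± 0.20 (SE; smallest adjusted p = 0.410 in edgeR). The block and these correlations used the title numbers, and the male header numbers were not tried here. The standard error was thus larger for female Egr1 and about equal or smaller for the others, and no Egr gene or region was called. Egr2 had the lowest counts of the 4 genes and also the highest biological coefficient of variation in both sexes. How far depth limits its values was not tested.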
